A study of Mus musculus with 4 samples.

Results

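The genes described here are 44 genes of DNA replication and mitosis, read by symbol from a table of 24169 genes. The cells were C8-D1A, a permanent line of astrocytes from mouse. All 44 were in the table. By role, 17 act in replication itself, 4 regulate entry into S phase and 23 act in mitosis. Control 1 and control 2 are the 2 libraries of untreated cells, and MBP 1 and MBP 2 are the 2 libraries of cells given 1 mM MBP for 24 h. MBP is a compound here, not myelin basic protein, and the labels do not spell it out. The title speaks of DBP, an abbreviation in common use for the plasticizer dibutyl phthalate, from which the body makes monobutyl phthalate. Total RNA was sequenced after removal of ribosomal RNA, and the unit is FPKM, reads scaled to gene length and to library size. The labels do not state that replicate libraries stem from different cultures, so the p-values rest on a spread that may be technical.

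Cells copy their DNA in S phase and divide it in M phase, and the genes for both are transcribed in waves. In G1, D-type cyclins and then E-type cyclins with their kinases inactivate the RB proteins and release E2F factors, which switch on genes of replication. The MCM helicase is loaded on DNA by CDC6 and CDT1 and activated together with CDC45 and the GINS complex. The DREAM and FOXM1 complexes act through the CHR element on promoters of mitotic genes. Later in the cycle, the products of these genes build the spindle, control the checkpoint and separate the chromosomes. In bulk RNA, fewer cells in a phase and less RNA per cell cannot be told apart.

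Promoters are shown first, since replication and mitosis genes are known for different promoter elements and the letters played no part in the choice or measurement of the genes. RefSeq promoter windows (build GRCm38.p6, 250 bases before to 50 after the annotated start) were held for 33 of the 44 genes, 1 of them with 2 windows. Each line below gives 180 bases up to the base before the RefSeq start, 5′ to 3′ on the gene's strand, and capitals mark matches to an E2F motif or to a CHR motif on either strand. The E2F motif was searched in the forms TTCGCGC and also TTGGCGC and also TTCCCGC and also TTGCCGC, the CHR motif as TTTGAA and also as TTTAAA. Adjacent or overlapping matches run together, and TTTAAA reads the same on both strands. The first 3 are replication genes, Mcm5 (chr8:75109329-75109508, plus strand), Mcm6 (chr1:128359706-128359885, minus strand) and Rrm1 (chr7:102441515-102441694, plus strand), and the last 4 are mitosis genes, Cdc20 (chr4:118437344-118437523, minus strand), Plk1 (chr7:122159255-122159434, plus strand), Cdk1 (chr10:69352913-69353092, minus strand) and Mki67 (chr7:135716380-135716559, minus strand). Cdk1 and Mki67 are shown because they hold both kinds of motif. The window of Mcm5 also holds a CHR match, which begins at -221 from the start and so lies outside the bases shown. Both kinds lay in 2 of 15 windows of replication genes and in 3 of 17 of mitosis genes, against 1.56% of all windows.
Mcm5: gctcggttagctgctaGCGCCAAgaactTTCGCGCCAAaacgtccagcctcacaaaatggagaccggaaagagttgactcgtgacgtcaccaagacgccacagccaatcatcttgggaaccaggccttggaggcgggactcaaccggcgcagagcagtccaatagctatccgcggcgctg
Mcm6: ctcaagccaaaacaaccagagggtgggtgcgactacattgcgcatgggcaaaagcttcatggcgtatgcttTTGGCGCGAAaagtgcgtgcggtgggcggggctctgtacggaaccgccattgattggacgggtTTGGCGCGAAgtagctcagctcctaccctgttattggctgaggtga
Rrm1: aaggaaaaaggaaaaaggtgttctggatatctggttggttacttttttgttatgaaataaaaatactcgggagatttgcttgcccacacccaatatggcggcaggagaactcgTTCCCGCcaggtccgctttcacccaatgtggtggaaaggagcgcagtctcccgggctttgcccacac
Cdc20: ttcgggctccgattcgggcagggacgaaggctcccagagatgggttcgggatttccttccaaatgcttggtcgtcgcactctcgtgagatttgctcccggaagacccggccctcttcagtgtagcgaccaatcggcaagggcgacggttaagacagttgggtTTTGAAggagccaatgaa
Plk1: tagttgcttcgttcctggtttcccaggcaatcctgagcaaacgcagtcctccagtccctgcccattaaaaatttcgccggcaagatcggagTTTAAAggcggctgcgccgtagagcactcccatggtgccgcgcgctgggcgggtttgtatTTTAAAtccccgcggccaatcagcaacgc
Cdk1: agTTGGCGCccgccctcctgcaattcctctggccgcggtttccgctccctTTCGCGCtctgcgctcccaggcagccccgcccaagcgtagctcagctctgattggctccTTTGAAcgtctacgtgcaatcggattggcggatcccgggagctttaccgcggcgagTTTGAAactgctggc
Mki67: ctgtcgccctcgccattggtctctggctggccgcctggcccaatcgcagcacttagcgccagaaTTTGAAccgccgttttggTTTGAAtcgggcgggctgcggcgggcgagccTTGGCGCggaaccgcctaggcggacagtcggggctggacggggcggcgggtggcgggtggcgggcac

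The 2 classes held different motifs. An E2F motif lay in 11 of 15 windows of replication genes (73.3%) and in 3 of 17 of mitosis genes (17.6%), where 9.57% of all 32851 windows in the table held one. A CHR motif lay in 16 of 17 windows of mitosis genes (94.1%) and in 4 of 15 of replication genes (26.7%), where 27.6% of all windows held one. The box CCAAT, bound by NF-Y, lay in 80.0% and 88.2% of the windows of the 2 classes and in 37.4% of all windows. Counted from the start, the CHR match began at -220 in Birc5, which encodes survivin, and at -18 in Cdc20. The window of the replication gene Mcm2 held a CHR match and no E2F match. The median GC content of the windows was 57.5% for replication genes, 58.7% for mitosis genes and 52.75% for all genes of the promoter table. The part of base composition in these shares was not tested. These are matches of letters, described without a test.

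**Figure D1:**
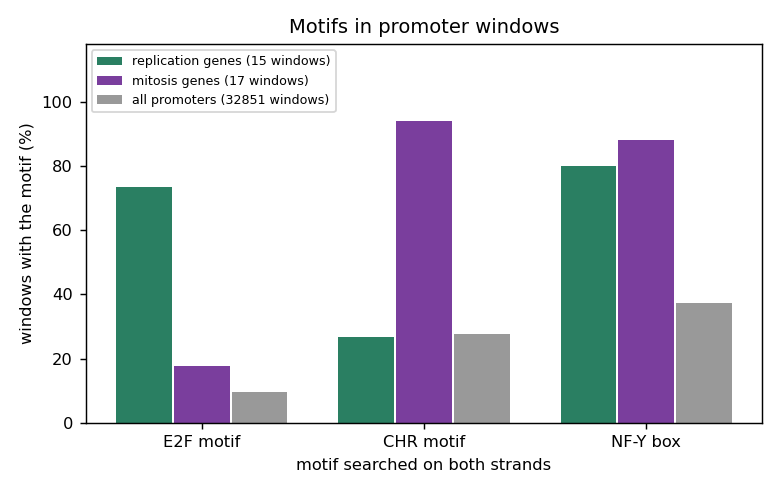
Share of promoter windows, in percent, that hold an E2F motif, a CHR motif or an NF-Y box (CCAAT), for replication genes, mitosis genes and all windows of the RefSeq table. The E2F bar is highest for replication genes (73.3%) and the CHR bar for mitosis genes (94.1%).

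The labelled cell type was checked against its markers. Of 9 astrocyte markers, 3 passed the filter of 1 FPKM in 2 libraries, S100b (4.75 to 5.69 FPKM), Sox9 (2.22 to 2.50) and Glul (12.6 to 13.6). Gfap, Slc1a2, Aldh1l1, Gja1 and Aqp4 lay at 0.012 to 0.282 FPKM, and Slc1a3 was at 0 in 3 libraries and at 0.0045 in MBP 2, so most defining markers of astrocytes were at or near 0. Of 6 markers of the oligodendrocyte lineage 4 passed, Sox10 among them at 87.8 to 99.97 FPKM. All 4 had a lower mean in MBP, and the mean log2 level of the list was 3.45 and 3.34 in untreated cells against 3.17 and 3.27. Of 5 neuronal markers 2 passed, at mean log2 levels of 3.38 and 3.23 against 3.14 and 3.15. They went in opposite directions, with Tubb3, a neuronal tubulin, at a log2 fold change of -0.43 and Map2, a microtubule-associated protein, at 0.092 with overlapping groups. Of fibroblast and pericyte markers 1 of 4 passed and of endothelial ones 1 of 5, and microglial markers all lay under the filter. The part of these markers in the results was not tested.

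All 44 genes were transcribed in every library, at a mean of 5.15 to 403 FPKM over the 4 libraries. Their median was 32.1 FPKM, and 43 of the 44 lay above the median of the 12403 genes tested, 6.98 FPKM. Library depth was 23571000 to 25907000 reads, and for the 39 genes whose values gave whole reads, 456 to 49199 reads stood behind each value. Exons of another gene overlap those of 13 of the 44, on the same strand for Foxm1, Mcm7 and Top2a, so their values are uncertain. Ccnd1, the D-type cyclin that starts G1 progression, was highest at 403 FPKM. Next came Ccna2, the cyclin of S and G2 phase (144), Mki67, the antigen used to count dividing cells (114), Top2a, the enzyme that untangles replicated DNA (87.0), and Plk1, a kinase of mitotic entry (86.0). Ccna2 lay above Mki67 in all libraries, from 134 to 156 against 99.0 to 128 FPKM. Top2a (82.9 to 88.7), Plk1 (82.6 to 90.6), Tpx2 (73.7 to 92.3) and Pcna (76.0 to 90.7) overlapped in their ranges. At the low end stood Gins2, a subunit of the GINS complex (4.65 to 5.97), and Ccne1, an E-type cyclin (8.19 to 9.93).

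**Figure D2:**
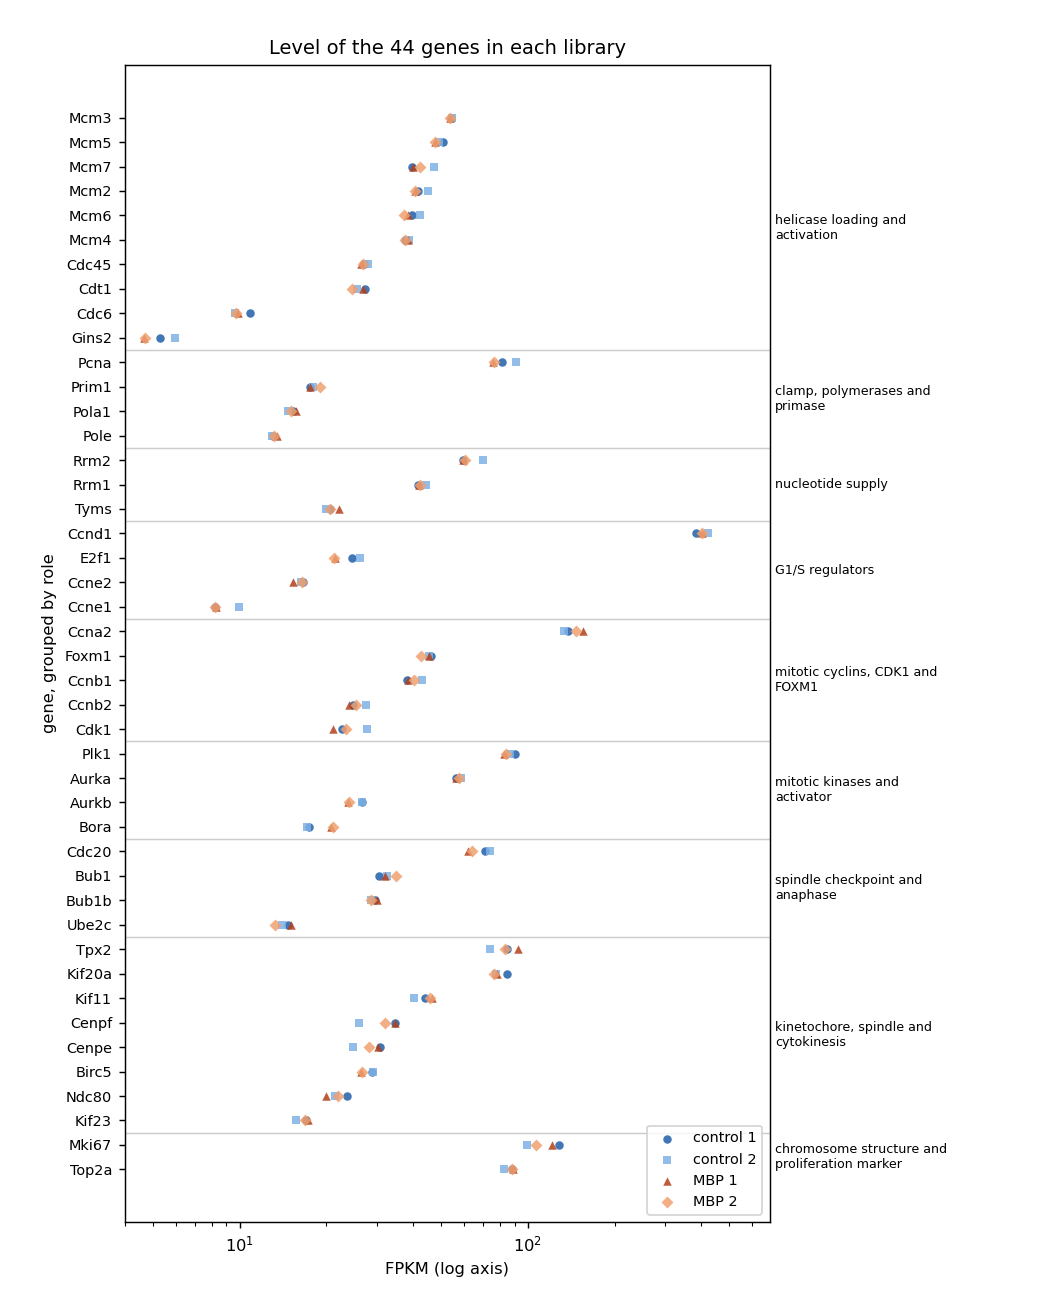
FPKM on a log axis for each of the 44 genes, grouped by role, with 1 point per library (circle control 1, square control 2, triangle MBP 1, diamond MBP 2). Levels run from Gins2 at 4.65 to Ccnd1 at 422 FPKM, and for most genes the 4 points lie close together next to the differences between genes.

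Control 2 stands apart from the other libraries for these genes and also over all genes tested, as given after the roles. The classes, the lists and the roles whose direction rests on it are given with and without it. The comparison of MBP-treated with untreated cells asked whether these genes changed together. In limma's test of log2(FPKM + 1) across 12403 genes, 0 of the 44 passed an adjusted p under 0.05, as did 0 of all genes (0%). Adjusted p of the 44 lay between 0.457 and 0.995. At an unadjusted p under 0.05 there was 1 gene higher in MBP, Bora (2.27% of 44, against 3.81% of all genes), and there were 4 lower, E2f1, Cdc20, Aurkb and Gins2 (9.09%, against 5.87%). These counts depended on single libraries: 5 higher and 11 lower without control 1, 1 and 3 without control 2, and 1 and 0 without MBP 1 and again without MBP 2. The share of all genes moved too, to 8.39% higher and 9.78% lower without control 1, 3.28% and 4.36% without control 2, 2.12% and 2.73% without MBP 1 and 2.14% and 3.60% without MBP 2. Of all genes 9.68% had such a p in either direction. Groups did not overlap for 18 of the 44, where 44.8% of all genes had separate groups: 6 genes higher in MBP (13.6%, against 21.3% of all genes) and 12 lower (27.3%, against 23.5%). That split was 9 and 9 after rescaling to TPM and 7 and 9 after quantile normalization. Fold changes of all 44 lay between -0.23 and 0.26 on the log2 scale, with a median of -0.042 against -0.0048 for all genes. The 95% intervals reached down to -0.44 (Cdk1) and up to 0.50 (Cenpf), with half-widths from 0.13 to 0.36. They come from limma and cover the spread among libraries, not the GC gradient given further on.

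**Figure D3:**
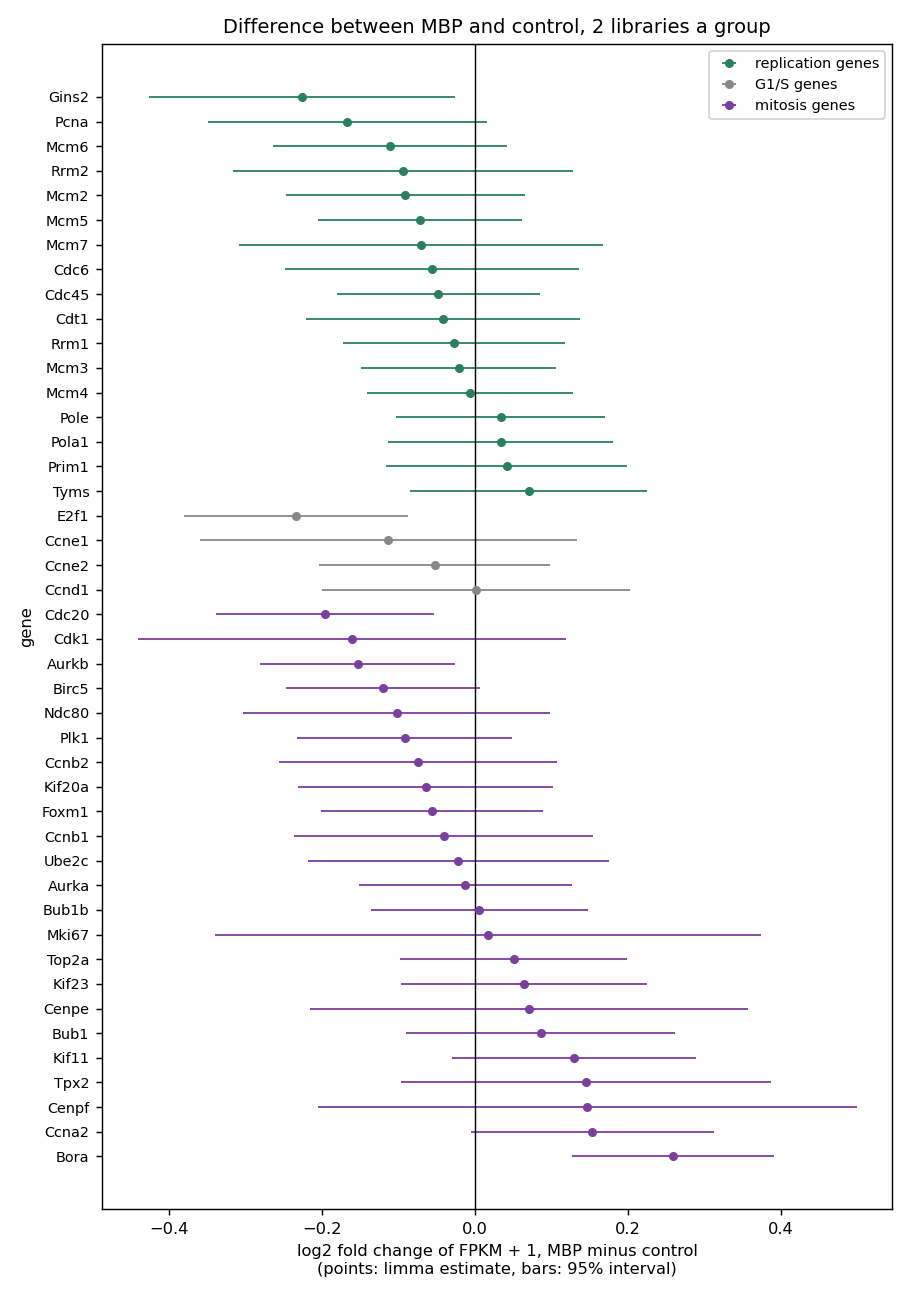
Log2 fold change of FPKM + 1, MBP minus control, for the 44 genes in their 3 classes, with limma's 95% interval as bars. Intervals of 39 genes include 0, and the 5 that leave it out are Bora on the right and E2f1, Cdc20, Aurkb and Gins2 on the left, none past the adjusted threshold.

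Of the roles with more than 2 genes, the helicase genes had the most even direction. All 10 had a lower mean in MBP, and 6 of the 10 had groups that did not overlap, where 23.5% of all genes were lower and separate, with a median log2 fold change of -0.063. Control 2 was the highest library for 7 of the 10. After TPM rescaling, quantile normalization or the GC and length correction 8 of 10 were lower, as they were without control 1, without control 2 or without MBP 2. Gins2 (chromosome 8, 120578633 to 120589304, minus strand, GRCm38) had 5.30 and 5.97 FPKM in control 1 and control 2 and 4.65 and 4.69 in MBP 1 and MBP 2. Both MBP values lay below both controls, a log2 difference of -0.23 with SE 0.0781 and limma adjusted p = 0.503. Its exons overlap those of Gse1 on the other strand, and without stranded counting reads of the 2 genes cannot be told apart. Mcm6, a helicase subunit, had 39.5 and 42.4 FPKM without MBP and 38.4 and 37.2 with it, and Mcm2, another subunit, had 41.6 and 45.1 against 40.7 and 40.5. In both, the groups did not overlap, but the controls lay further apart than the nearer control lay from the MBP libraries. Mcm5, Mcm3 and Cdc45 (whose exons meet those of Ufd1 on the other strand) also had lower, separate groups, at log2 fold changes of -0.072, -0.021 and -0.048. After the GC and length correction these stood at -0.038, 0.017 and -0.015, and the median of the 10 genes at -0.034. Mcm4, Mcm7, whose counts may include the microRNA genes Mir25 and Mir93 within it, Cdc6, which loads the helicase, and its partner Cdt1 overlapped, at -0.0063, -0.070, -0.056 and -0.042.

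Genes of the fork and of nucleotide supply went both ways. Pcna, the sliding clamp that holds polymerases on DNA, had 81.2 and 90.7 FPKM without MBP and 76.0 and 76.7 with it. The MBP libraries lay below both controls, a log2 fold change of -0.17 (95% interval -0.35 to 0.016). Pcna has annotated pseudogenes, Pcna-ps1 and Pcna-ps2, with which it may share reads, so its value is uncertain. Pole, the catalytic subunit of the leading-strand polymerase, had 13.05 and 13.01 FPKM without MBP and 13.5 and 13.2 with it, separate but close, and exons of the antisense gene Gm15792 overlap its own. Prim1, the primase that starts each strand, had 17.5 and 18.01 against 17.6 and 19.0, and Pola1, its polymerase partner, stood at a log2 fold change of 0.033, both with overlapping groups.

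Ribonucleotide reductase makes deoxynucleotides from a large subunit, Rrm1, and a small one, Rrm2. Rrm2 had 59.5 and 69.7 FPKM without MBP and 59.8 and 60.7 with it. Rrm1 had 41.7 and 44.4 against 41.9 and 42.4. In both genes control 2 stood above the other 3 libraries, which lay close together, and without it both means were higher in MBP. Tyms, thymidylate synthase, which has a pseudogene Tyms-ps, had 20.6 and 20.003 FPKM without MBP and 22.1 and 20.6 with it, with a gap between the groups far smaller than the difference between the controls.

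Among the regulators of S phase entry, E2f1 had the largest difference. E2f1, an activating factor of the E2F family (chromosome 2, 154559407 to 154569892, minus strand, GRCm38), had 24.5 and 26.1 FPKM without MBP and 21.4 and 21.3 with it, from 1883, 1942, 1619 and 1741 reads. Both MBP libraries lay below both controls, a log2 difference of -0.23 with SE 0.0571 and limma adjusted p = 0.496. After the correction for GC content and length it was -0.15. Ccne1 had 8.19 and 9.93 FPKM against 8.31 and 8.22, with control 2 alone high. Ccne2, the other E-type cyclin, had 16.7 and 16.4 against 15.4 and 16.4. Ccnd1 had 384 and 422 FPKM without MBP and 402 and 403 with it, between the controls (log2 fold change 0.0016, 95% interval -0.20 to 0.20). Log2 fold changes of these 4 regulators were positive for 1, Ccnd1, and negative for 3 (median -0.083). Without control 2 the split was 2 and 2 (median -0.027).

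Of the mitotic cyclins and their partners, Ccna2 alone had a higher mean in MBP, joined by Ccnb1 without control 2. It had 138 and 134 FPKM without MBP and 156 and 147 with it, separate groups with a log2 fold change of 0.15 (95% interval -0.0058 to 0.31), and exons of Exosc9 overlap it on the other strand. Cdk1, the kinase that drives entry into mitosis, had 22.7 and 27.6 FPKM without MBP and 21.2 and 23.5 with it, which overlapped. Ccnb1, a B-type cyclin that activates this kinase, had 38.0 and 43.0 against 38.4 and 40.2, and Ccnb2, the other one, had 24.8 and 27.4 against 24.0 and 25.4. In these 3 genes control 2 was the highest library, and both B-type cyclins have an annotated pseudogene with which they may share reads. Foxm1, the factor that switches on mitotic genes, stood at a log2 fold change of -0.056.

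Among the mitotic kinases and their activator stood the highest fold change of the 44 genes, that of Bora. Bora, the cofactor through which Aurora A activates PLK1 (chromosome 14, 99046427 to 99074537, plus strand, GRCm38), had 17.5 and 17.1 FPKM without MBP and 20.7 and 21.04 with it. Both MBP libraries lay above both controls by more than either pair differed, a log2 difference of 0.26 with SE 0.0516 and limma adjusted p = 0.457. By unadjusted p it ranked 95 of the 12403 genes. Values of Bora did not give whole reads, and its coordinates differ from those of GENCODE M21, the annotation used here for length and GC content. Its value after the GC and length correction is therefore uncertain. Aurkb, the kinase of the chromosomal passenger complex (chromosome 11, 69045647 to 69051664, plus strand, GRCm38), had 26.7 and 26.5 FPKM without MBP and 23.7 and 23.9 with it, a log2 difference of -0.15 with SE 0.0498 and limma adjusted p = 0.503. Plk1 had 90.6 and 86.9 against 82.6 and 83.8 FPKM, separate groups at -0.092, and at -0.011 after the GC and length correction. Aurka, the kinase of centrosomes and spindle poles, stood at -0.013 with overlapping groups, and at 0.042 after that correction. Means of these 4 genes were higher in MBP for 1 and lower for 3. Without control 2 the split was 2 and 2, with the median at -0.052 either way.

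Among genes of the spindle checkpoint and of anaphase, Cdc20 lay lowest. Cdc20, the activator of the anaphase-promoting complex (chromosome 4, 118432901 to 118437352, minus strand, GRCm38), had 71.1 and 74.1 FPKM without MBP and 62.2 and 64.2 with it. The groups did not overlap, at a log2 difference of -0.20 with SE 0.0555 and limma adjusted p = 0.503 and -0.11 after the GC and length correction. Exons of Elovl1 overlap those of Cdc20 on the other strand. Ube2c, the ubiquitin-conjugating enzyme of that complex, had 14.7 and 14.0 against 15.1 and 13.3, and Bub1, a checkpoint kinase, had 30.4 and 32.4 against 31.9 and 34.9, both overlapping. Bub1b, which encodes the checkpoint protein BUBR1, stood at 0.0058. Means of these 4 genes were higher in MBP for 2 and lower for 2 (median log2 fold change -0.0082). Without control 2 the split was 1 and 3 (median -0.035).

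Of 8 genes of kinetochores, spindle and cytokinesis, 5 had a higher and 3 a lower mean in MBP. Kif11, the motor that pushes spindle poles apart, had 44.02 and 40.5 FPKM without MBP and 46.6 and 45.9 with it, a log2 fold change of 0.13 with separate groups. Birc5, a partner of Aurkb in the passenger complex, had 28.8 and 29.0 against 26.5 and 26.6, a log2 fold change of -0.12 (95% interval -0.25 to 0.0067). Tpx2, an activator of Aurora A on spindles, had 84.9 and 73.7 against 92.3 and 83.0, overlapping. The kinetochore genes Cenpf and Cenpe and the cytokinesis motor Kif23 stood at 0.15, 0.071 and 0.064, and the kinetochore gene Ndc80 and the motor Kif20a at -0.10 and -0.064, all overlapping. Without control 2, 3 of the 8 had a higher and 5 a lower mean, and the median turned from 0.067 to -0.065. Control 2 was the lowest library for 5 of the 8. After the GC and length correction 4 were higher and 4 lower. Mki67 had 128 and 99.0 FPKM without MBP and 121 and 107 with it, so the controls enclosed both MBP libraries, and without control 2 the mean was lower in MBP. Top2a had 88.0 and 82.9 against 88.7 and 88.2, above the nearer control by less than the controls differed.

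Replication genes were then set beside mitosis genes. The median log2 fold change was -0.048 for the 17 replication genes, 4 of them positive and 13 negative, and -0.013 for the 23 mitosis genes, 11 positive and 12 negative. The signs of the replication genes were 6 and 11 with TPM and 7 and 10 with quantile normalization. Without control 2 they were 8 and 9 (median -0.014), and those of the mitosis genes 9 and 14 (median -0.025). Groups did not overlap for 7 replication genes lower in MBP (41.2%) and 2 higher (11.8%), and for 4 mitosis genes in each direction (17.4% each), against 23.5% of all genes lower and 21.3% higher. The medians differed by 0.035, mitosis above replication. That difference is smaller than the SD between replicates of the difference of mean class levels, 0.053. It came to -0.010 without control 2, 0.057 without control 1, 0.0099 without MBP 1 and 0.070 without MBP 2.

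Control 2 was the library in which the classes stood closest. The mean log2(FPKM + 1) of mitosis genes exceeded that of replication genes by 0.53 in control 1, 0.42 in control 2, 0.53 in MBP 1 and 0.52 in MBP 2. Control 2 lay below the other 3, which lay close together. It was the library farthest from the gene's own mean for 27 of the 44 genes, against 40.3% of all genes tested. It was the lowest of the 4 libraries for 9 mitosis and 4 replication genes and the highest for 6 and 10, where it was lowest for 31.3% and highest for 32.3% of all genes. The largest shortfalls were in genes with long transcripts, Cenpf (34.5 FPKM in control 1, 26.1 in control 2), Mki67 (128 and 99.0) and Cenpe (30.8 and 24.8). The largest excesses were in Cdk1 (22.7 and 27.6), Ccne1 (8.19 and 9.93) and Mcm7 (39.8 and 47.1). The root mean square difference over the 44 genes was 0.15 between the controls, 0.077 between the MBP libraries, 0.098 and 0.11 between control 1 and the MBP libraries, and 0.18 and 0.14 between control 2 and these. Thus control 1 lay nearer to both MBP libraries than to the other control.

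**Figure D4:**
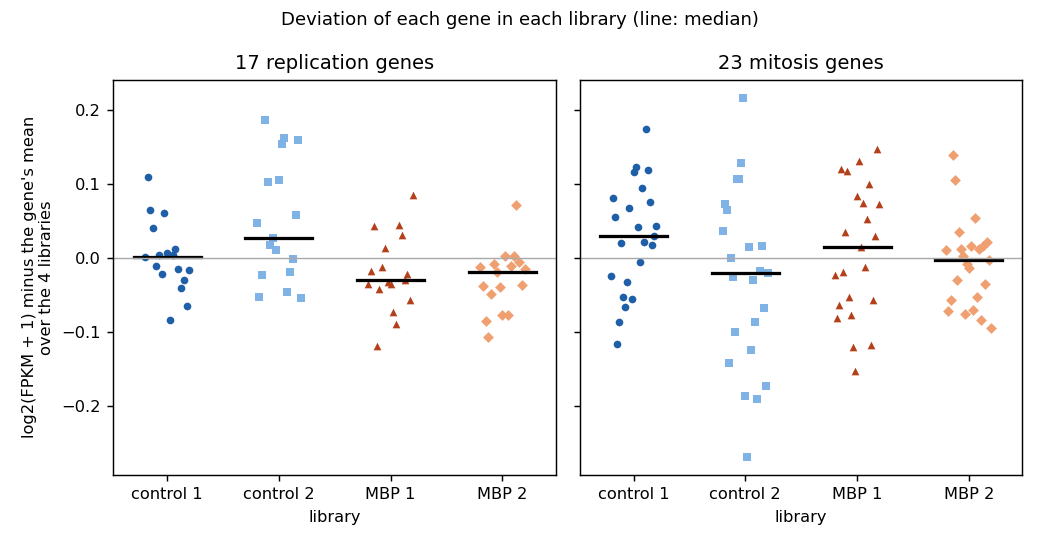
Log2(FPKM + 1) minus the gene's mean over the 4 libraries, for each of the 17 replication genes (left) and 23 mitosis genes (right) in each library, with the median as a line. Control 2 spreads widest in both panels, its median is the highest of the 4 in the left panel (0.027) and the lowest in the right (-0.021), and values of the MBP libraries overlap those of control 1.

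Composition moved with these values. Across the 44 genes, which share libraries and are not independent, Spearman's rho of log2 fold change was -0.50 with GC content and 0.46 with length of the longest transcript, and over 12389 genes it was -0.44 and 0.21. For control 2 minus control 1 it was 0.21 and -0.46 over the 44 genes, and 0.14 and -0.17 over the 12389. For MBP 2 minus MBP 1 it was -0.11 and -0.43 over the 44 genes, and -0.16 and -0.022 over the 12389. The median GC content of all genes was 49.0%. E2f1 (58.3%), Cdc20 (55.6%), Gins2 (53.4%) and Aurkb (52.5%) lie above it, Bora (44.3%) and Ccna2 (46.1%) below it. After a loess correction for GC content and length, Bora stood at 0.22, Ccna2 at 0.14, Gins2 at -0.19, Pcna at -0.16, Aurkb at -0.092 and Birc5 at -0.12. The corrected medians were -0.038 for replication and -0.011 for mitosis genes. The part of composition in the differences was not tested further.

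**Figure D5:**
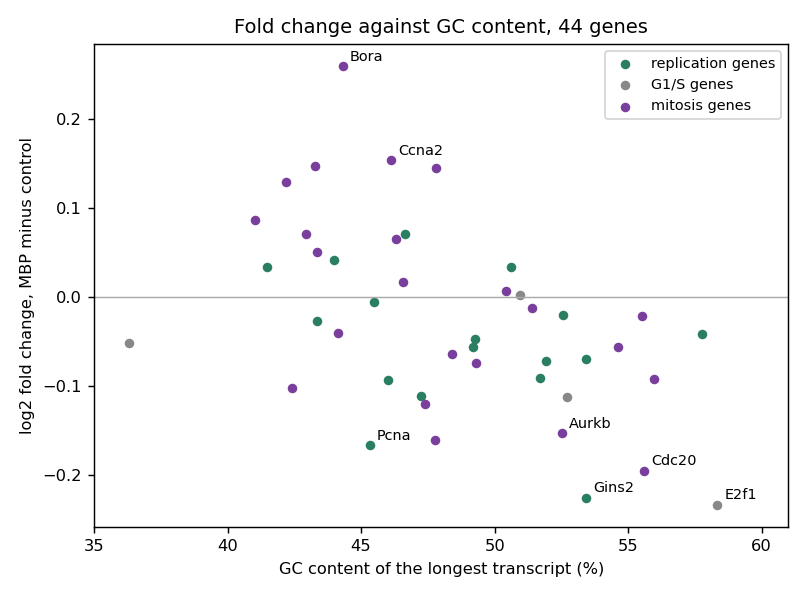
Log2 fold change, MBP minus control, against the GC content of the longest transcript in percent, with 1 point per gene coloured by class. Points fall from left to right (Spearman's rho -0.50, a description across 44 genes), with Bora above and E2f1, Gins2 and Cdc20 at the low right.

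Lists of further cell cycle genes gave the same count of 0 past the adjusted threshold, and they are described beside all genes, of which 21.3% were separate and higher and 23.5% separate and lower. Of 39 other replication genes, 16 had a positive and 23 a negative fold change (median -0.019), with 6 separate and higher and 13 separate and lower. Without control 2 there were 20 positive and 19 negative (median 0.0021). Lowest in p were Pold2, a subunit of the lagging-strand polymerase (29.7 and 29.0 FPKM in the controls, 25.3 and 26.3 in MBP), Lig1, the ligase that joins Okazaki fragments (27.9 and 28.4, 24.2 and 25.5), and Fen1, the nuclease that trims them (39.5 and 42.7, 36.9 and 35.1). All 3 had lower, separate groups, at log2 fold changes of -0.18, -0.17 and -0.19, and of -0.070, -0.12 and -0.12 after the GC and length correction. Of 48 other mitosis genes 29 were positive and 19 negative (median 0.041), with 10 separate and higher and 8 lower. Without control 2 there were 25 positive and 23 negative (median 0.0017), and the median was 0.014 after the GC and length correction. Cdca8, the borealin subunit that holds Aurkb and Birc5 in the passenger complex, had 11.6 and 11.7 FPKM without MBP and 9.37 and 10.2 with it, lower and separate. Incenp, the scaffold of that complex, had 88.2 and 79.0 against 84.8 and 78.3, which overlapped. Gtse1, a microtubule-binding protein of G2 phase, stood at -0.17 and Plk4, the kinase of centriole duplication, at 0.15. In these lists, too, mitosis exceeded replication least in control 2: by 0.86, against 0.90 in control 1, 0.92 in MBP 1 and 0.93 in MBP 2.

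Of 25 genes of G1 kinases, RB and E2F proteins, 8 were separate and higher and 3 separate and lower. The median was 0.018, with 14 positive and 11 negative, and without control 2 it was -0.012, with 10 and 15. Cdk6, a partner kinase of D-type cyclins, had 13.9 and 13.5 FPKM without MBP and 16.1 and 15.8 with it (log2 fold change 0.21, 0.12 after the GC and length correction), while Ccnd3, a D-type cyclin, had 9.16 and 9.06 against 7.97 and 8.27. Lin9, a core subunit of the DREAM complex, stood at 0.15. Among CDK inhibitors 6 of 7 were tested, and Cdkn1c lay under the filter with 0 to 0.041 FPKM. Of the 6, 5 had lower, separate groups (median of the list -0.12, -0.040 after the GC and length correction and -0.084 without control 2), among them Cdkn2d (16.1 and 19.7 FPKM in the controls, 13.5 and 15.7 in MBP) and Cdkn2c (24.6 and 26.9, 23.8 and 22.5), which inhibit kinases of D-type cyclins. Cdkn1b, which encodes p27, had higher, separate groups, with 26.1 and 24.2 against 30.4 and 28.4 FPKM (log2 fold change 0.22, SE 0.0664, limma adjusted p = 0.503). Cdkn1a, which encodes the p53 target p21, had 24.2 and 26.2 against 23.2 and 23.7.

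Of 17 genes of the anaphase-promoting complex and its partners, 3 were separate and higher and 6 lower. The median was -0.026, with 7 positive and 10 negative, and without control 2 it turned to 0.043, with 9 and 8. Ube2s, which extends its ubiquitin chains, stood at -0.19, its subunit Anapc2 at -0.15 and its subunit Cdc27 at 0.11. Of 13 genes of the replication checkpoint and of repair, 4 were separate and higher and 0 lower (median 0.031, and 0.032 without control 2). The checkpoint kinases Atm, Chek2 and Atr stood at 0.15, 0.12 and 0.13, and at 0.051, 0.12 and 0.022 after the GC and length correction.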

How the data were processed

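Total RNA of 4 C8-D1A libraries was depleted of ribosomal RNA and made into libraries with a directional kit, per the labels' protocols. From the submitters' processing notes come bcl2fastq, HISAT2 and GRCm38. For versions, counter, annotation and strand, the answer is: not given in the sources used here. One FPKM table of 24169 genes was deposited by the authors. Columns were matched to samples by title, and replicates numbered in accession order, which pairs nothing.

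Values were tested as log2(FPKM + 1) with limma 3.58.1, R 4.3.3 (two-sided, eBayes trend, Benjamini-Hochberg over all genes, threshold 0.05), after a filter that kept 12403 genes (2 or more libraries reaching FPKM 1). A fold change on this scale understates that of low genes. Reads were recovered from FPKM times exon length (GENCODE M21), which came out whole, within 0.05, for 93.8% to 94.0% of values under 1000 reads, and gave depths of 23571000 to 25907000 reads. No molecular identifiers are described, so reads are not independent molecules.

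The 44 genes, their classes and the lists were chosen with earlier results of these data known, so lists are given as counts and medians without a set test. Values per library are given for 9 landmark genes and for up to 3 genes of each role with the lowest unadjusted p. From each list up to 3 genes with the lowest unadjusted p are named, some of them only with a fold change. Mcm7, Cenpf, Cenpe, Cdkn1a, Cdkn1c, Incenp and the other members given only as a fold change were named after their values were seen. Motifs and alternatives are given with their results. The loess correction used a span of 0.5.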

Additional observations from a re-analysis of the deposited data

How the results depend on the processing

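The count of the 44 genes past the threshold was 0 in all 17 alternatives. Over all genes it was 0 except with limma-voom on recovered reads, where it was 18, with 0 of the 44 among them. With 1 library left out, genes whose groups did not overlap numbered 25 to 36 (8 to 16 higher and 16 to 22 lower), against 18 with all libraries, since a lone library has no spread to overlap. The median of replication genes then ran from -0.047 to -0.014, that of mitosis genes from -0.027 to 0.024 and their difference from -0.010 to 0.070. Quantile normalization moved the mitosis median to 0.024. Across the alternatives that kept all libraries, the difference of the classes lay between 0.016 (without Ccna2, Top2a and Mki67) and 0.054 (quantile normalization).

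Of 28 genes given by library, 19 kept their sign in every alternative. Signs turned with 1 library left out for Prim1 (-0.0098 to 0.092), Rrm1 (-0.072 to 0.017), Rrm2 (-0.21 to 0.018), Ccne1 (-0.24 to 0.012), Ccnd1 (-0.067 to 0.070), Ccnb1 (-0.13 to 0.046), Ube2c (-0.11 to 0.062) and Mki67 (-0.17 to 0.20). They turned under the GC and length correction for Ube2c (0.056), Top2a (-0.0096) and Mki67 (-0.047), and under quantile normalization for Rrm1 (0.0011). The cause was not tested. No paired analysis was run. A number recurs in sample titles of both groups, but the labels do not state that any control and MBP library belong together. How far depth limits the values, most of all for genes with few reads such as Gins2, was not separated from the spread between libraries.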
